A study of Mus musculus with 22 samples.

Results

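The genes described here are 10 genes of bone morphogenetic protein (BMP) signalling and its best known targets, out of 43430 genes in the deposited tables. They are the ligand gene Bmp4, the receptor gene Bmpr1a, the transducer genes Smad1 and Smad5, the inhibitory Smad genes Smad6 and Smad7, and the target genes Id1, Id2, Id3 and Id4. They were taken by name, and all 10 passed the filter on low counts, as did 15084 genes in all. RNA was sequenced from ZsGreen-positive muscle stem cells (satellite cells) of the hindlimbs of mice. All mice had the genotype Pax7-zsgreen, a reporter under the control of Pax7, the transcription factor that marks these cells, and all were perfused with a mild fixative, so no group is unfixed. The groups were uninjured muscle (labelled QSC) at ZT4 and at ZT16 (3 libraries each), day 1 after injury with the myotoxin cardiotoxin at ZT4 and at ZT16 (4 each), and day 3 after injury at ZT4 and at ZT16 (4 each), 22 libraries in total. ZT is zeitgeber time, the hours since lights on. In the labels the time belongs to the injury, with neither an hour of collection nor an age of the mice, and nothing says that replicates are separate mice, so p-values measure only the spread between these libraries.

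A BMP dimer binds type I receptors such as BMPR1A together with type II receptors, and the type I receptor phosphorylates SMAD1 and SMAD5, which join SMAD4 and enter the nucleus. The complex switches on the Id genes, which encode helix-loop-helix proteins without a DNA-binding region that tie up E proteins and so keep myogenic factors such as MYOD1 from acting. SMAD6 and SMAD7 are induced by the same pathway and feed back on it, and in muscle BMP signals are known to keep satellite cell progeny dividing and to delay their differentiation.

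Libraries held 5965957 to 9751536 estimated counts. Levels are TMM-scaled CPM, counts relative to the rest of a library's RNA. Differences are given on the log2 scale ± SE, were estimated by edgeR in 1 model of the 22 libraries, and were called at an adjusted p under 0.05. Pax7 was present in every library and fell from 290.4 to 349 CPM in uninjured muscle to 42.2 to 78.4 CPM at day 1 and 18.1 to 29.1 CPM at day 3. In such bulk samples, fewer cells of a type and less RNA per cell cannot be told apart. A pair of uninjured libraries stood apart. ZT16 replicates 1 and 3 reached 72089 and 62435 CPM in the sum of 12 immediate early genes, while the other 4 uninjured libraries had 1547 to 4519. The same sum was 2943 to 15077 CPM at day 1 and 1828 to 4289 CPM at day 3. For the 10 genes, results against uninjured muscle are therefore also given without those 2 libraries where a call or a direction changed.

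After injury the genes did not move as a block. At day 1 against uninjured muscle, 3 of the 10 rose (Id1, Id2 and Smad1), 5 fell (Bmp4, Smad6, Id4, Smad5 and Bmpr1a) and 2 did not pass the test, where 34.6% of all tested genes were called higher and 40.6% lower. At day 3 against uninjured muscle, 1 rose (Id2) and 7 fell, against backgrounds of 37.9% higher and 39.1% lower. From day 1 to day 3, 6 fell and none rose, with 26.7% of genes higher and 28.7% lower. Median log2 changes of the 10 genes were −0.22, −0.76 and −0.83 in these comparisons, beside −0.13, −0.03 and −0.02 over all tested genes. The first and second of these comparisons share the uninjured libraries, and the third shares its libraries with both.

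**Figure D1:**
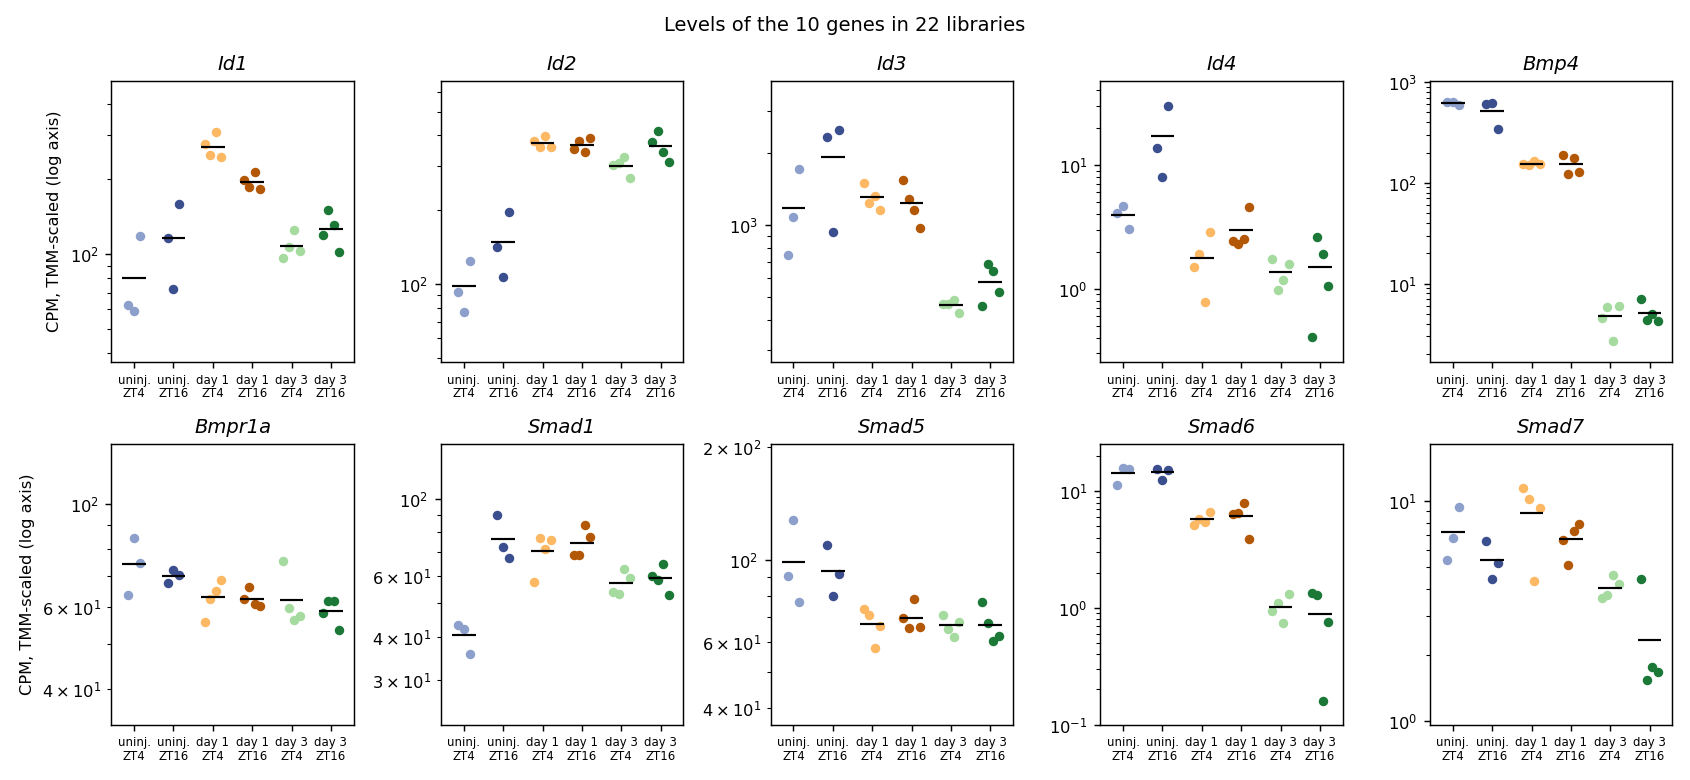
Each point is 1 library and each bar a group mean, with TMM-scaled CPM on a log axis in 6 groups of uninjured muscle (n = 3 at each time) and days 1 and 3 after injury (n = 4 at each time). Bmp4 steps down from 341 to 640.3 CPM in uninjured libraries to 2.67 to 7.08 CPM at day 3, while Id2 lies higher in all injured libraries than in any uninjured one.

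Promoters are shown for Bmp4 and Smad6, which fell the furthest of the 10 genes at day 3, and for Id4, which had the highest ratio of ZT16 to ZT4 among the 10 genes in uninjured muscle. Each is the 250 bases before the RefSeq start site on GRCm38.p6, read 5′ to 3′ on the gene's strand. Capitals mark GGCGCC and GTCT (AGAC when it lies on the other strand), short motifs that BMP-driven SMAD complexes are known to bind. The Bmp4 window is chr14:46390670-46390919 on the minus strand, the Smad6 window chr9:64022060-64022309 on the minus strand and the Id4 window chr13:48260866-48261115 on the plus strand.
Bmp4: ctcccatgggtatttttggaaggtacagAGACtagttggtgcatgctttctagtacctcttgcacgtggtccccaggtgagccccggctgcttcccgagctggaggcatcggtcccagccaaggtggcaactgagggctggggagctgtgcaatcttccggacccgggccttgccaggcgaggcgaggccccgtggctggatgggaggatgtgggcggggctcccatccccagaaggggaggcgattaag
Smad6: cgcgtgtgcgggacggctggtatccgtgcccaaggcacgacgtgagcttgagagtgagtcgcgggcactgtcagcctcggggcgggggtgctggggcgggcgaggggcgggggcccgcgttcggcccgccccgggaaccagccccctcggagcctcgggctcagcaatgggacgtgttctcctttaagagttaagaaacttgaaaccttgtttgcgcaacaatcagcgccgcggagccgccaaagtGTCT
Id4: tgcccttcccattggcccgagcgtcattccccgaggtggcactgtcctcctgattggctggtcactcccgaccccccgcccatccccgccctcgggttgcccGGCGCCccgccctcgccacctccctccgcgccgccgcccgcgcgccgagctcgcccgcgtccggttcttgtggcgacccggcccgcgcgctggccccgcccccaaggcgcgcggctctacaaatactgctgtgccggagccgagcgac
Promoters of 8 of the 10 genes were searched for these motifs (Id2, Id3, Id4, Bmp4, Bmpr1a, Smad1, Smad5 and Smad6). The remaining genes were not searched. GGCGCC occurred in 9.59% of 32851 mouse promoters of this length, and among the 8 genes in Id2, Id4, Bmpr1a and 1 of the 3 Smad5 starts. GTCT on either strand occurred in 82.9% of promoters, so the copies in Bmp4 and Smad6 set them apart from few others. The arrangement of GGCGCC followed 5 bases later by GTCT, on either strand, was present in 0.0700% of promoters and in none of the 8 genes. At so low a share its absence sets the 8 genes apart from few others, and bases beyond the 250 were not searched. A match is a run of letters and says nothing of binding in these cells.

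Bmp4, the ligand, is on chromosome 14 (46383520 to 46390669, minus strand, GRCm38). In uninjured muscle it had 640.3, 639.9 and 594 CPM at ZT4 and 608, 617 and 341 CPM at ZT16. Day 1 libraries had 153, 149, 164 and 155 CPM at ZT4 and 189, 123, 175 and 128.5 CPM at ZT16. Day 3 libraries had 4.55, 5.84, 2.67 and 6.03 CPM at ZT4 and 7.08, 4.37, 4.96 and 4.23 CPM at ZT16. The 3 states formed separate ranges with no overlap, and within each state the times overlapped. Bmp4 fell by 1.89 ± 0.14 on the log2 scale at day 1 (adjusted p = 6.38e-11) and by 6.83 ± 0.18 at day 3 (adjusted p = 2.19e-18), which left 0.00882 of the uninjured level. From day 1 to day 3 it fell by 4.94 ± 0.17 (adjusted p = 1.59e-15). Without uninjured ZT16 replicates 1 and 3 the changes were −1.88 ± 0.13 and −6.88 ± 0.15. The uninjured ZT16 library with the low value, replicate 3 at 341 CPM, is 1 of the 2 that stand apart. Genes on the opposite strand overlap Bmp4 in the annotation (Gm15217 and Gm15222), but they held 31 and 79 estimated counts over all libraries, against 34565 for Bmp4.

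Bmpr1a, the type I receptor gene, is on chromosome 14 (34410734 to 34503341, minus strand). Its level moved little, from 72.1 ± 7.13 CPM (SD, n = 6) in uninjured muscle to 62.7 ± 3.96 CPM (n = 8) at day 1 and 60.5 ± 6.59 CPM (n = 8) at day 3. The ranges of the 3 states overlapped. It fell by 0.20 ± 0.08 at day 1 (adjusted p = 0.0303) and by 0.25 ± 0.08 at day 3 (adjusted p = 0.00734). The call at day 1 was also lost without any 1 of 9 libraries (all 6 of uninjured muscle, day 1 ZT4 replicates 1 and 2 and day 1 ZT16 replicate 1), and that at day 3 without uninjured ZT4 replicate 2 (−0.17 ± 0.08, adjusted p = 0.0771). Neither call held without uninjured ZT16 replicates 1 and 3 (adjusted p = 0.437 and 0.0797), and leaving out uninjured ZT16 replicate 2 alone gave −0.08 at day 1 (adjusted p = 0.406) and −0.12 at day 3 (adjusted p = 0.210). With offsets for the effective transcript length, the day 1 difference changed sign (0.05 ± 0.09, adjusted p = 0.656).

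Smad1, which encodes a transducer that BMP receptors phosphorylate, is on chromosome 8 (79338395 to 79399518, minus strand). In uninjured muscle it had 43.2, 42.2 and 35.7 CPM at ZT4 and 89.98, 72.6 and 67.3 CPM at ZT16. The day 1 values were 57.4, 76.8, 71.4 and 76.2 CPM at ZT4 and 68.7, 68.6, 83.9 and 77.7 CPM at ZT16. At day 3 it ranged from 53.0 to 62.8 CPM at ZT4 and from 52.8 to 64.9 CPM at ZT16. The 3 uninjured ZT4 libraries were the lowest of all 22, and of the uninjured ZT16 libraries replicates 2 and 3 lay within the day 1 range and replicate 1 above it. Averaged over both times, Smad1 rose by 0.38 ± 0.09 at day 1 (adjusted p = 0.000548) and did not pass the test at day 3 (0.06 ± 0.09, adjusted p = 0.543). Those averages cover different values at the 2 times. Against uninjured libraries of the same time, day 1 differed by 0.80 ± 0.13 at ZT4 (adjusted p = 9.55e-06) and −0.04 ± 0.13 at ZT16 (adjusted p = 0.821), and day 3 differed by 0.50 ± 0.13 at ZT4 (adjusted p = 0.00169) and −0.37 ± 0.13 at ZT16 (adjusted p = 0.0109).

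Smad5, the gene of the second transducer, is on chromosome 13 (56703010 to 56742377, plus strand). In CPM it fell from 95.8 ± 19.2 (n = 6) to 68.6 ± 6.12 (n = 8) at day 1 (−0.48 ± 0.10, adjusted p = 0.000128) and 66.7 ± 5.40 (n = 8) at day 3 (−0.52 ± 0.10, adjusted p = 4.76e-05). Per length, summed over all its transcripts, its level was closer to constant. Summed TPM of its transcripts was 20.6 ± 6.26 and 22.03 ± 3.00 in uninjured muscle (ZT4 and ZT16), 21.8 ± 3.23 and 19.0 ± 1.87 at day 1 and 16.8 ± 2.55 and 15.9 ± 2.94 at day 3. In that sum the minor transcript Smad5-206, described below, made up 47.3 and 32.7% at day 1, from means of 68.8 and 43.1 estimated counts. The coding transcript Smad5-201 had means of 765 and 646 estimated counts in uninjured muscle, not scaled for depth. Its means were 382 and 472 at day 1 and 440 and 500 at day 3. With effective length offsets the day 1 difference changed sign (0.12 ± 0.12, adjusted p = 0.369) and the day 3 difference was no longer called (−0.18 ± 0.11, adjusted p = 0.160), while day 3 against day 1 became a fall of 0.30 ± 0.11 (adjusted p = 0.0239). Without uninjured ZT16 replicates 1 and 3 the day 1 difference in CPM also lost its call (−0.24 ± 0.12, adjusted p = 0.0828).

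The transcripts that RSEM assigned to Smad5 changed with injury. Smad5-206, annotated as a retained intron and ending at base 56733214 of chromosome 13, before the end of the coding transcript Smad5-201 at 56742377, made up 0, 4.05 and 5.28% of the gene's TPM in uninjured ZT4 libraries and 1.86, 2.81 and 12.99% at ZT16. At day 1 it made up 53.3, 48.9, 42.9 and 44.2% at ZT4 and 38.8, 20.2, 28.2 and 43.7% at ZT16. At day 3 the range was 16.5 to 33.2% at ZT4 and 12.1 to 30.6% at ZT16. Every day 1 library lay above every uninjured library, and only 1 uninjured library, ZT16 replicate 3, lay within the day 3 range. The estimates rest on few reads, with mean estimated counts of 4.41 and 7.74 in the uninjured groups, 68.8 and 43.1 at day 1 and 24.4 and 27.7 at day 3. Bmpr1a-202, a shorter annotated coding transcript, went from 6.27 ± 1.81% and 7.24 ± 4.91% in uninjured muscle to 29.5 ± 14.7% and 15.9 ± 12.4% at day 1 and 18.05 ± 7.98% and 13.04 ± 7.92% at day 3. Both uninjured groups (4.36 to 7.95% and 2.97 to 12.61%) lay below both injured ZT4 groups (16.16 to 49.62% at day 1 and 12.99 to 29.84% at day 3), while the injured ZT16 groups (0.57 to 27.96% and 5.31 to 24.05%) overlapped with uninjured muscle. Few reads carry Bmpr1a-202 as well, with mean estimated counts of 11.8 and 11.7 in the uninjured groups. Its means were 51.5 and 25.7 at day 1 and 28.25 and 18.98 at day 3. These shares are the authors' deposited estimates, and no test was run on them.

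**Figure D2:**
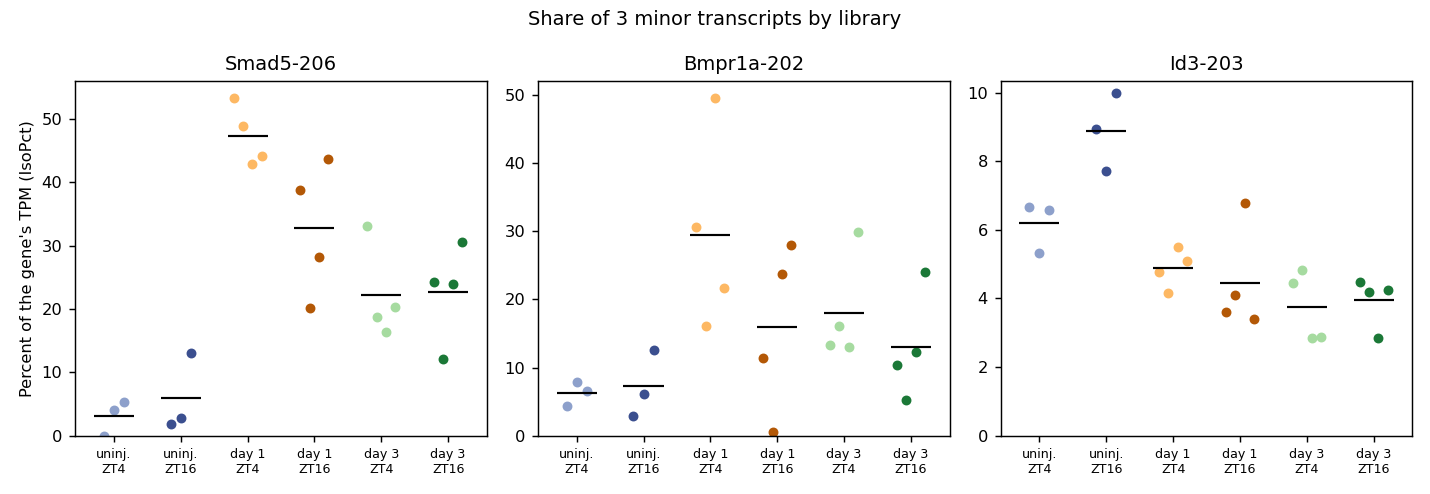
Points are libraries and bars group means of the deposited share of a gene's TPM (percent) that each minor transcript makes up, in the 6 groups. The Smad5-206 share lies between 20.2 and 53.3% in the 8 day 1 libraries and between 0 and 12.99% in the 6 uninjured ones, whereas Bmpr1a-202 at day 1 ZT16 spans 0.57 to 27.96% and overlaps with uninjured muscle.

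Smad6, which encodes an inhibitory SMAD that acts mainly on BMP receptor signals, is on chromosome 9 (63953076 to 64022059, minus strand). It had 11.3, 15.96 and 15.5 CPM at ZT4 and 15.6, 12.6 and 15.3 CPM at ZT16 in uninjured muscle. On day 1 it had 5.18, 5.84, 5.44 and 6.62 CPM at ZT4 and 6.37, 6.56, 7.87 and 3.88 CPM at ZT16. The day 3 values were 0.94, 1.11, 0.74 and 1.31 CPM at ZT4 and 1.33, 1.2996, 0.16 and 0.75 CPM at ZT16. As for Bmp4, the states did not overlap and the times did. Smad6 fell by 1.27 ± 0.23 at day 1 (adjusted p = 2.12e-05), by 3.85 ± 0.26 at day 3 (adjusted p = 1.57e-12) and by 2.58 ± 0.26 from day 1 to day 3 (adjusted p = 6.13e-09). The 8 day 3 libraries held 59 estimated counts of it in all, against 631 in the 6 uninjured libraries. Over the 22 libraries, the log2 levels of Smad6 and Bmp4 had a Pearson correlation of 0.97, which falls to 0.28 once group means are subtracted. The libraries share their groups and depth, so the first value repeats the differences between states.

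Smad7, which encodes an inhibitor of both BMP and TGF-beta receptors, is on chromosome 18 (75367529 to 75395935, plus strand). It did not pass the test at day 1 (7.81 ± 2.46 CPM, n = 8, against 6.32 ± 1.77 CPM, n = 6, log2 0.31 ± 0.26, adjusted p = 0.273) and fell by 1.00 ± 0.26 at day 3, to 3.19 ± 1.32 CPM (n = 8, adjusted p = 0.00138). From day 1 to day 3 it fell by 1.31 ± 0.25 (adjusted p = 7.47e-05). The range at day 3, 1.54 to 4.60 CPM, met that of uninjured muscle, 4.43 to 9.45 CPM. The SMAD6 and SMAD7 genes thus had different values at day 1, −1.27 and 0.31, but the difference between them was not tested.

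Id2 is on chromosome 12 (25093799 to 25097140, minus strand), and all of its deposited abundance was on 1 transcript. In uninjured muscle it had 92.5, 77.1 and 124 CPM at ZT4 and 141, 107 and 195 CPM at ZT16. After 1 day it had 381, 360.1, 397 and 359 CPM at ZT4 and 351, 379, 344 and 392 CPM at ZT16. On day 3 it had 303, 309, 326 and 269 CPM at ZT4 and 375, 416, 342 and 311 CPM at ZT16. Every injured library was above every uninjured one. Id2 rose by 1.62 ± 0.11 at day 1 (adjusted p = 5.05e-12) and by 1.46 ± 0.11 at day 3 (adjusted p = 2.56e-11). The difference between the days did not pass the test (−0.17 ± 0.10, adjusted p = 0.163). It was called as a fall by limma (−0.17 ± 0.07, adjusted p = 0.0314) and when only the groups of the 2 days were fitted. Without uninjured ZT16 replicates 1 and 3 the rises were 1.98 ± 0.13 and 1.76 ± 0.12.

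Id1 is on chromosome 2 (152736251 to 152737410, plus strand). It had 62.7, 59.0 and 118 CPM at ZT4 and 116, 72.6 and 159 CPM at ZT16 in uninjured muscle. Libraries of day 1 gave 276, 249, 310.1 and 246 CPM at ZT4 and 198, 187, 214 and 182 CPM at ZT16. After 3 days it had 96.5, 107, 125 and 103 CPM at ZT4 and 119, 151, 131 and 102 CPM at ZT16. The day 1 libraries were higher than all others, and those of day 3 overlapped with uninjured muscle. Id1 rose by 1.26 ± 0.16 at day 1 (adjusted p = 6.77e-07) and fell by 0.98 ± 0.15 from day 1 to day 3 (adjusted p = 1.01e-05). Day 3 against uninjured muscle did not pass the test (0.28 ± 0.16, adjusted p = 0.119), but did without uninjured ZT16 replicates 1 and 3 (0.68 ± 0.17, adjusted p = 0.00187), without uninjured ZT4 replicate 3 alone (0.51 ± 0.14, adjusted p = 0.00188), without uninjured ZT16 replicate 3 alone (0.43 ± 0.15, adjusted p = 0.0148) and by DESeq2 (0.33 ± 0.16, adjusted p = 0.0469). It was also called by limma (0.35 ± 0.14, adjusted p = 0.0338), without the filter on low counts (0.41 ± 0.10, adjusted p = 0.000115) and with effective length offsets (0.39 ± 0.16, adjusted p = 0.0352).

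Id3 is on chromosome 4 (136143497 to 136145755, plus strand). In uninjured muscle it had 749, 1078 and 1709.6 CPM at ZT4 and 2331, 934 and 2489.5 CPM at ZT16. Day 1 gave 1495, 1232, 1321 and 1158 CPM at ZT4 and 1544, 1278, 1151 and 971 CPM at ZT16. Libraries of day 3 gave 466, 465, 483 and 428 CPM at ZT4 and 455, 682, 639 and 522 CPM at ZT16. The uninjured libraries spread over more than the whole day 1 range, while all 8 day 3 libraries were below all others. Id3 did not pass the test at day 1 (−0.25 ± 0.20, adjusted p = 0.269, and 0.40 ± 0.20, adjusted p = 0.0896, without uninjured ZT16 replicates 1 and 3) and fell by 1.55 ± 0.20 at day 3 (adjusted p = 1.18e-06), which was 0.97 ± 0.18 without uninjured ZT16 replicates 1 and 3 (adjusted p = 0.000173). From day 1 to day 3 it fell by 1.302 ± 0.19 (adjusted p = 1.14e-05). A retained-intron transcript of the gene, Id3-203, made up 5.32 to 6.68% of its TPM in uninjured ZT4 libraries, 7.71 to 9.98% at uninjured ZT16 and 2.85 to 6.77% in the injured libraries.

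Id4 is on chromosome 13 (48261228 to 48266026, plus strand) and was the least abundant Id gene in TPM in all 6 groups. It had 4.07, 4.70 and 3.04 CPM at ZT4 and 13.8, 7.998 and 29.8 CPM at ZT16 in uninjured muscle. At day 1 it averaged 2.37 ± 1.11 CPM (n = 8) and at day 3 1.43 ± 0.67 CPM (n = 8), from 136 and 83 estimated counts in all. Id4 fell by 1.84 ± 0.35 at day 1 (adjusted p = 4.40e-05) and by 2.52 ± 0.36 at day 3 (adjusted p = 8.21e-07). Without uninjured ZT16 replicates 1 and 3 these became −1.16 ± 0.41 (adjusted p = 0.0161) and −1.90 ± 0.41 (adjusted p = 0.000272), and with ZT4 libraries alone the day 1 difference was −1.15 ± 0.51 (adjusted p = 0.0521). From day 1 to day 3 it did not pass the test (−0.68 ± 0.36, adjusted p = 0.108), but did without day 3 ZT16 replicate 2 (−0.91 ± 0.37, adjusted p = 0.0416). An antisense gene that overlaps Id4, A330033J07Rik, held 37 estimated counts in all libraries, and the sources used here do not state whether strand was kept.

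**Figure D3:**
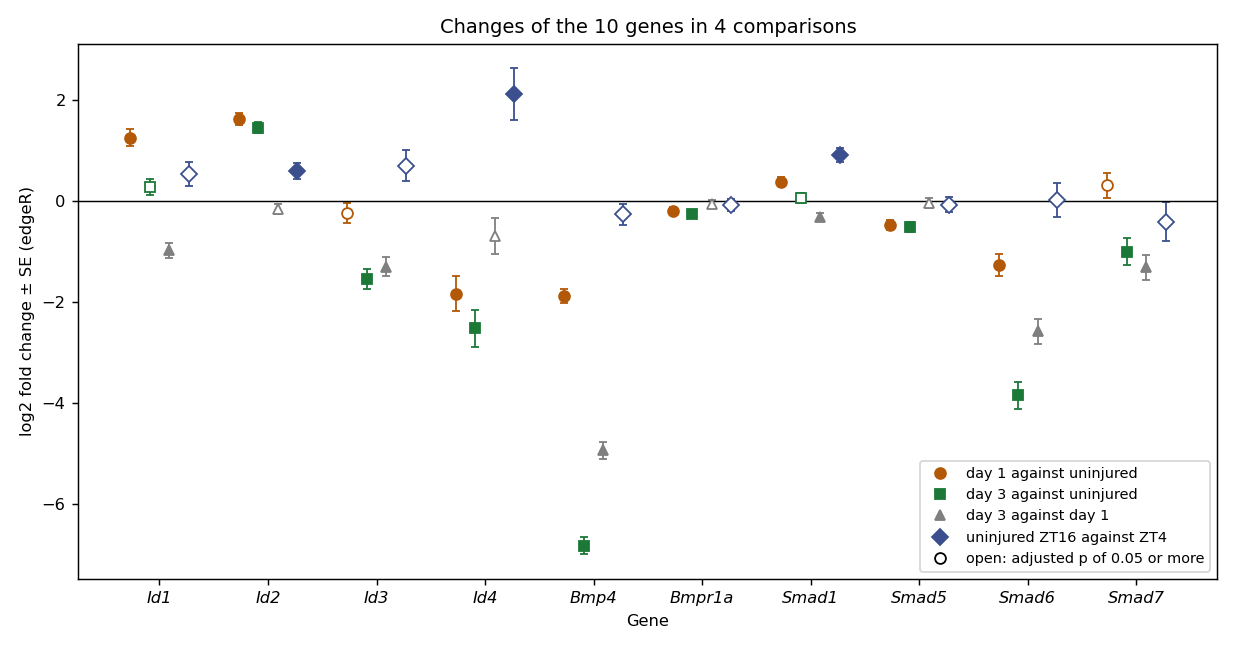
Points show the log2 change of each of the 10 genes, with bars of 1 SE, in 4 comparisons (circles, squares, triangles and diamonds), filled where the adjusted p was under 0.05. Bmp4 and Smad6 are low at both days and lower at day 3, Id2 is at 1.62 and 1.46, and Id1 is called at day 1 but not at day 3 against uninjured muscle.

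Markers of other cell types also differed between the states. Of all tested genes, 34.6% were called higher and 40.6% lower at day 1 against uninjured muscle, and 37.9% and 39.1% at day 3. Summed CPM of 10 endothelial markers was 119 to 232 in uninjured muscle, 50.8 to 132 at day 1 and 19.0 to 38.8 at day 3, and 7 of the 10 fell at day 3, when Smad6, Id3 and Bmp4 were also low. Most of the uninjured sum was Tek (86.9 and 126 CPM), which was at 13.7 and 14.5 CPM at day 1. At day 1, when Bmp4 and Smad6 had fallen, 1 of the 10 endothelial markers rose and 1 fell, with a median log2 of 0.37. Pecam1 was at 8.96 and 13.2 CPM in the uninjured groups and 12.6 and 17.3 CPM at day 1. Cdh5 was at 2.03 and 1.48 CPM in the uninjured groups, 1.19 and 1.31 at day 1 and 0.83 and 0.64 at day 3. Summed CPM of 9 mural markers was 795 to 1606, 419.7 to 491 and 294 to 493 in the 3 states. Of these, 7 fell at each day and 1 rose at day 3. Acta2 (714 and 331 CPM at ZT4 and ZT16) and Notch3 (429 and 393 CPM) made up most of the uninjured mural sum. Summed CPM of 10 macrophage markers was 16.3 to 76.7 in uninjured muscle, 1213 to 3659 at day 1 and 241 to 799 at day 3. All 10 rose at both days, when Id2 was high. From day 1 to day 3, 9 of the 10 fell, beside 28.7% of all tested genes, while the change of Id2 did not pass the test. Summed CPM of 6 neutrophil markers was 0 to 3.71, 29.2 to 308 and 6.40 to 16.4. For 10 fibro-adipogenic markers it was 5627 to 7025, 967 to 1759.6 and 1774 to 3773, yet 6 of the 10 rose and 3 fell at day 3 (2 and 5 at day 1). Pdgfra went from 0.74 and 1.42 CPM in the uninjured groups to 17.1 and 11.2 CPM at day 3. The sum was, for 5 Schwann cell markers 17.7 to 93.1, 6.94 to 15.2 and 2.87 to 7.69. For 8 myofiber markers it was 483 to 1229, 121 to 819 and 847 to 2231. The part of these cells in the changes of the BMP and Id genes was not tested.

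ZT16 and ZT4 were compared within each state. In uninjured muscle 3 of the 10 genes were higher at ZT16, Smad1, Id2 and Id4, and none lower, where 8.53% of tested genes were called higher and 9.12% lower. Smad1 rose by 0.92 ± 0.14 (40.4 ± 4.07 to 76.6 ± 11.9 CPM, n = 3 and 3, adjusted p = 8.60e-05), with ranges that did not overlap. Id4 rose by 2.12 ± 0.52 (adjusted p = 0.0054), also without overlap, and Id2 by 0.60 ± 0.17 (adjusted p = 0.0137), with overlap. Id1 (0.54 ± 0.24, adjusted p = 0.131) and Id3 (0.70 ± 0.30, adjusted p = 0.122) did not pass the test. The highest values of all 4 Id genes at ZT16 were in replicate 3 and the lowest in replicate 2, the ZT16 library without the high immediate early level. Without replicates 1 and 3 at ZT16, Smad1 was the 1 gene still called (0.82 ± 0.18, adjusted p = 0.0114). Id2 was then at 0.11 ± 0.19 (adjusted p = 0.869), Id4 at 1.00 ± 0.69 (adjusted p = 0.515), Id1 at −0.16 ± 0.29 (adjusted p = 0.874) and Id3 at −0.36 ± 0.34 (adjusted p = 0.676), a fit in which 1 ZT16 library is assumed to vary like the other groups. Single libraries also decided calls. Id4 was not called without ZT16 replicate 3 (1.46 ± 0.55, adjusted p = 0.0804). Id2 was not called without that library (0.34 ± 0.15, adjusted p = 0.150), without ZT4 replicate 1 (0.53 ± 0.19, adjusted p = 0.0605) or without ZT4 replicate 2 (0.44 ± 0.17, adjusted p = 0.0932). It was also not called when the uninjured groups were fitted alone (0.57 ± 0.24, adjusted p = 0.203). Id1 and Id3 were called without ZT4 replicate 3 (0.92 ± 0.22 and 1.07 ± 0.31, adjusted p = 0.00598 and 0.0282) or without ZT16 replicate 2 (0.76 ± 0.22 and 1.00 ± 0.24, adjusted p = 0.0199 and 0.00659), and Id1 by limma (0.88 ± 0.25, adjusted p = 0.0224). Over all 22 libraries, deviations from group means had a Pearson correlation of 0.89 for Id1 and Id2, 0.82 for Id1 and Id3 and 0.66 for Id2 and Id3, libraries that share their preparation and depth.

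At day 1 and at day 3 none of the 10 genes passed the test between ZT16 and ZT4, where 0.0% of all tested genes did by edgeR. At an unadjusted p under 0.05 there were 920 genes at day 1 and 1003 at day 3, and DESeq2 called 27 and 4 and limma 46 and 0. Id1 was the 1 gene of the 10 at an unadjusted p under 0.05 at day 1 (−0.47 ± 0.20, adjusted p = 0.756, edgeR), and its ranges did not overlap, 246 to 310.1 CPM at ZT4 and 182 to 214 CPM at ZT16. At day 3 Smad7 was the 1 gene (−0.75 ± 0.36, adjusted p = 0.747, edgeR).

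The difference between ZT16 and ZT4 was itself compared between states. The labels tie the time to the injury, which uninjured muscle did not have, so the time need not mean the same in the states compared. Smad1 was the 1 gene of the 10 called, with a time difference 0.84 ± 0.18 lower at day 1 than in uninjured muscle (log2 −0.84, adjusted p = 0.00710) and 0.87 ± 0.18 lower at day 3 (log2 −0.87, adjusted p = 0.00242), where 7.46% and 12.8% of all tested genes were called in either direction. Its difference was 0.92 ± 0.14 in uninjured muscle, 0.09 ± 0.12 at day 1 and 0.05 ± 0.12 at day 3. Without uninjured ZT16 replicates 1 and 3 the value was −0.74 ± 0.21 at day 1, no longer called (adjusted p = 0.102), and −0.77 ± 0.21 at day 3 (adjusted p = 0.0460). Leaving out 1 library at a time kept both calls, with values from −0.92 to −0.70 at day 1 and from −0.96 to −0.74 at day 3. Id1 did not pass at day 1 (−1.01 ± 0.32, adjusted p = 0.0574), but did by DESeq2 (adjusted p = 0.0205) and limma (adjusted p = 0.0111). It also did without uninjured ZT4 replicate 3 (−1.40 ± 0.27, adjusted p = 0.00422) or ZT16 replicate 2 (−1.23 ± 0.28, adjusted p = 0.00745), but was at −0.31 ± 0.33 without uninjured ZT16 replicates 1 and 3 (adjusted p = 0.787). The other Id genes were not called by edgeR as described, but were under some alternatives. With all libraries, limma called Id2 at day 1 (−0.87 ± 0.21, adjusted p = 0.0177), and edgeR without the filter on low counts called Id1, Id2 and Id3. Id2 was called at day 1 without uninjured ZT4 replicate 3 (−0.83 ± 0.21, adjusted p = 0.0174) or ZT16 replicate 2 (−0.78 ± 0.20, adjusted p = 0.0126), and Id3 without ZT16 replicate 2 (−1.07 ± 0.31, adjusted p = 0.0324). Id4 was called at day 3 without uninjured ZT16 replicate 2 (−2.32 ± 0.72, adjusted p = 0.0295) or day 3 ZT16 replicate 2 (−2.45 ± 0.76, adjusted p = 0.0399), and by DESeq2 (−2.001 ± 0.75, adjusted p = 0.0459).

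The order of the 10 genes by level, compared per length as TPM, changed with injury. Id3 was the highest in all 6 groups, from 2666 ± 1196 TPM (n = 3) at uninjured ZT16 to 566 ± 24.2 TPM (n = 4) at day 3 ZT4, and its range lay above that of the next gene in each. Bmp4 was the next in uninjured muscle, at 499 ± 65.5 TPM at ZT4 and 449.7 ± 129 TPM at ZT16, although at ZT16 its range met that of Id1. At day 1 Bmp4 was the fourth, at 114 TPM at both times, below Id1 and Id2, which overlapped at ZT4 (455 ± 42.6 and 438 ± 14.4 TPM) and were apart at ZT16 (338 ± 29.6 and 439 ± 23.6 TPM). At day 3 Bmp4 was the seventh, at 3.60 ± 1.16 and 3.70 ± 1.02 TPM, below Smad1, Smad5 and Bmpr1a. Smad1, Smad5 and Bmpr1a lay between 14.0 and 37.7 TPM in all groups and overlapped in part. Smad6, Smad7 and Id4 were among the lowest, under 8 TPM, except for Id4 at uninjured ZT16 (16.8 ± 11.3 TPM).

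Of 56 other genes of the pathway on 7 lists, 43 were tested. At day 1 against uninjured muscle, 5 rose and 27 fell, where 34.6% of all tested genes rose and 40.6% fell. At day 3, 7 rose and 29 fell, where 37.9% of all tested genes rose and 39.1% fell. Between the days, 10 rose and 21 fell, beside 26.7% and 28.7% of all genes. Without uninjured ZT16 replicates 1 and 3, which leaves only replicate 2 in that group, more rose and fewer fell at day 1, and fewer fell at day 3. Over all tested genes, rises were then also a larger part of the calls at both days.

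Among the other ligands, Bmp6 fell from 111 ± 24.7 CPM (n = 6) to 23.5 ± 4.99 CPM (n = 8) at day 1 (−2.23 ± 0.16, adjusted p = 9.53e-12) and 1.82 ± 0.68 CPM (n = 8) at day 3 (−5.92 ± 0.21, adjusted p = 1.17e-17). Of the 4 ligands tested, 3 fell at each day (Bmp2, Bmp6 and Gdf6), beside 40.6% and 39.1% of all tested genes. Bmp5 rose at day 3 to 1.37 CPM from 0.18 CPM (2.85 ± 0.88, adjusted p = 0.00531), where 37.9% of all tested genes rose. The medians of the 4 were −1.40 at day 1 and −2.81 at day 3, beside −0.13 and −0.03 over all genes. The call of Bmp2 was lost at both days without uninjured ZT16 replicates 1 and 3 (0.29 ± 0.24 and −0.39 ± 0.24, adjusted p = 0.310 and 0.155).

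Among 10 receptors and coreceptors, 7 fell at each day and none rose, beside 40.6% and 39.1% of all genes that fell. Fewer fell at day 1 without uninjured ZT16 replicates 1 and 3. Bmpr2, the main type II BMP receptor gene, fell by 1.48 ± 0.15 at day 1 (adjusted p = 1.74e-09) and by 1.05 ± 0.14 at day 3 (adjusted p = 3.79e-07). Acvr2b, the gene of a type II receptor shared with activins and myostatin, fell from 27.9 ± 7.33 CPM (n = 6) to 2.55 ± 1.33 CPM (n = 8) at day 3 (−3.47 ± 0.28, adjusted p = 3.15e-11). Rgmb, which encodes a membrane-bound BMP coreceptor, fell from 268 ± 34.7 CPM to 97.7 ± 13.7 CPM at day 1 and 56.3 ± 3.79 CPM at day 3. The median of the 10 was −0.70 at day 1 and −1.22 at day 3. With effective length offsets the day 1 counts were 2 rising and 5 falling, where 5523 and 5478 of 15084 tested genes did. Smad4, the gene of the shared partner of all receptor-activated SMADs, fell by 0.90 ± 0.17 at day 1 (adjusted p = 4.64e-05) and by 0.85 ± 0.17 at day 3 (adjusted p = 9.13e-05).

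Secreted antagonists and modulators moved both ways. Of 10 tested, 1 rose and 5 fell at day 1 (34.6% and 40.6% of all genes), and 2 rose and 7 fell at day 3 (37.9% and 39.1%). Chrdl2, which encodes a chordin-like protein, fell from 595 ± 139 CPM (n = 6) to 38.7 ± 11.1 CPM (n = 8) at day 1 (−3.95 ± 0.19, adjusted p = 7.78e-13) and 1.32 ± 0.69 CPM (n = 8) at day 3 (−8.79 ± 0.27, adjusted p = 3.57e-16). Fst, which encodes follistatin, a binder of activins and some BMPs, did not pass at day 1 (0.41 ± 0.56, adjusted p = 0.511) and rose at day 3 from 1.05 ± 0.61 to 5.18 ± 1.26 CPM (2.35 ± 0.54, adjusted p = 0.000413). Chrd, which encodes chordin, fell by 3.49 ± 0.29 at day 1 and by 1.64 ± 0.26 at day 3.

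Of 8 intracellular and membrane inhibitors, 2 rose and 4 fell at day 1 (34.6% and 40.6% of all genes) and 6 fell at day 3 (39.1%). More rose at day 1 and fewer fell at day 3 without uninjured ZT16 replicates 1 and 3. Nedd4l, the gene of a ubiquitin ligase that acts on SMADs, fell from 188 ± 36.4 CPM to 37.8 ± 9.44 CPM at day 1 (−2.30 ± 0.14, adjusted p = 8.36e-13) and 32.9 ± 4.26 CPM at day 3. Smurf2, the gene of another such ligase, rose by 0.83 ± 0.16 at day 1 (adjusted p = 5.01e-05) and was at −0.12 ± 0.16 at day 3 (adjusted p = 0.490). The targets Hey1 and Atoh8 fell at both days, Atoh8 by 1.41 ± 0.15 and 1.67 ± 0.15 and Hey1 by 2.15 ± 0.12 and 2.61 ± 0.12, unlike Id2, which rose. Hey1 is also a Notch target.

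Partners that Id proteins bind, or keep from acting, are basic helix-loop-helix proteins. Of 7 such genes, 2 rose and 4 fell at day 1 (34.6% and 40.6% of all genes), and 4 rose and 3 fell at day 3 (37.9% and 39.1%). The number falling at day 1 was lower without uninjured ZT16 replicates 1 and 3. The E protein genes went apart at day 3. Tcf12 rose from 80.0 ± 16.7 CPM (n = 6) to 193 ± 15.2 CPM (n = 8) (1.27 ± 0.11, adjusted p = 7.83e-11) and Tcf3 by 0.85 ± 0.09, while Tcf4 fell by 1.32 ± 0.07 (adjusted p = 7.15e-15). Myod1, the myogenic determination factor, rose by 2.41 ± 0.09 at day 1 and by 1.69 ± 0.09 at day 3. Myog, which encodes the differentiation factor myogenin, fell from 286 ± 157 CPM to 10.1 ± 7.07 CPM at day 1 (−4.94 ± 0.39, adjusted p = 3.05e-09) and rose to 1666 ± 348 CPM at day 3 (2.55 ± 0.36, adjusted p = 4.76e-06). Myog rose by 7.48 ± 0.41 on the log2 scale from day 1 to day 3, when Id1 and Id3 fell. All 7 genes of this list passed the test between the days, 4 upward and 3 downward, where 26.7% and 28.7% of all tested genes did.

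**Figure D4:**
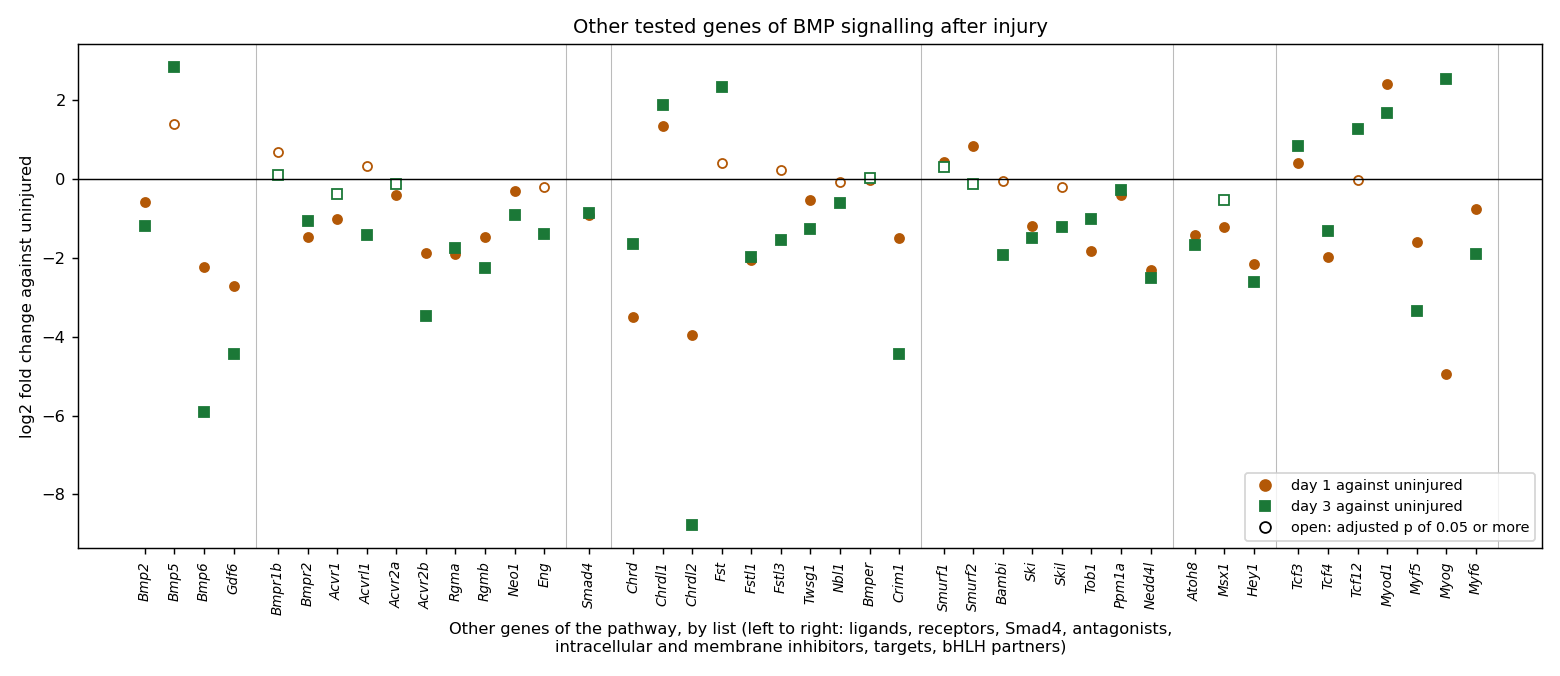
Points show log2 changes against uninjured muscle for the tested pathway genes outside the 10, at day 1 (circles) and day 3 (squares), filled where the adjusted p was under 0.05, with vertical lines between lists. Chrdl2 and Bmp6 are the lowest points at day 3 (−8.79 and −5.92), and Myog is at −4.94 at day 1 and 2.55 at day 3.

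In uninjured muscle, 9 of the 43 were higher and 2 lower at ZT16 than at ZT4, beside 8.53% and 9.12% of all genes. Tob1 (2.83 ± 0.32, adjusted p = 1.48e-05), Bambi, which encodes a decoy receptor (2.96 ± 0.55, adjusted p = 0.00125), and Skil, a corepressor gene of SMADs (1.69 ± 0.32, adjusted p = 0.00116), rose together with the target Msx1 (2.16 ± 0.48, adjusted p = 0.00246). Without ZT16 replicates 1 and 3, Tob1 and Chrd were still called, while Bambi, Skil and Msx1 were not. In the test of the time difference between states, 1 gene of the 43 was higher and 4 lower at day 1, and 5 were lower at day 3, where 7.46% and 12.8% of all genes were called in either direction. Without those 2 libraries, all of these calls at day 1 were lost, and those of Bambi, Msx1 and Skil at day 3.

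The genes with the most similar profiles were sought among 9810 genes with a mean of at least 10 CPM, by Pearson correlation of log2(CPM + 1) over the 22 libraries. Bmp4 was closest to Foxred2 (0.991) and Cpeb1 (0.990). Id2 was closest to Ppif (0.976), Impdh2 (0.973) and Tuba4a (0.967), Id1 to Atp6v0c (0.951), and Id3 to Sdc4 (0.939). After group means were subtracted, the closest to both Id1 (0.888) and Id3 (0.877) was Ackr3, which encodes an atypical chemokine receptor. These values are descriptions over libraries that share their groups, depth and preparation.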

How the data were processed

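RNA from 22 libraries was quantified by the authors with RSEM, and per the file headers the deposited files give, for each of 103732 transcripts, expected (estimated) counts, TPM, the percent of its gene's TPM (IsoPct) and an effective length in bases. Trimmomatic 0.33, STAR 2.5.2, RSEM 1.3.3, DESeq2 and mm10 are named in the submitters' processing notes. The annotation release is not given in the sources used here. Per the labels, fixed cells were sorted and libraries made with SMART-seq v4.

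Deposited expected counts were summed per gene and rounded. Symbols and positions come from GENCODE M21 (GRCm38) and tables of gene names, and 42462 of 43430 genes had a symbol. One edgeR 4.0.16 fit in R 4.3.3 (TMM, robust quasi-likelihood, minimum count 10, minimum total 15, 6 group means, no block) gave all contrasts, with days averaged over times and Benjamini-Hochberg adjustment over 15084 genes, threshold 0.05. Depth, 5965957 to 9751536 counts, limits precision for genes under about 10 CPM. SEs were back-calculated from each F statistic. DESeq2 1.42.0, limma 3.58.1 (voom), upper-quartile scaling, no filter, a replicate block, effective length offsets, contrast groups alone, single times and omitted libraries were alternatives. The pipeline was tested on simulated counts.

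The 10 genes and all lists were chosen with earlier results of these data known. All 10 are reported. By rule, other pathway genes were named where they were among the 4 with the smallest p of their list and comparison, or had a mean of at least 10 CPM and did not pass, and up to 3 closest profiles of a gene were named, with Pax7, Myod1 and Myog as a check of the labels. Values of Fst, Tcf3, Bmpr2 and Chrd at day 3, and of Fst at day 1, fall outside this rule and were chosen after they were seen. Promoters come from RefSeq.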

Additional observations from a re-analysis of the deposited data

Results flagged for a closer look

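In 2 of 40 groups of 4 libraries tested over the 10 genes, 1 library stood far from the other 3, and chance alone gives about 1 in 20. Id4 in day 1 ZT16 had 4.57 CPM in replicate 4, against 2.54 CPM in the next library and 2.32 CPM in the lowest, a gap of 0.9013 of the range. That library also had the lowest summed immediate early level of day 1, 2943 CPM, against 10849 to 15077 CPM in the other 7. Its sum of endothelial markers was the highest of day 1 (132 CPM). Its sums of muscle stem cell markers (1414 CPM) and fibro-adipogenic markers (967 CPM) were the lowest of day 1. No link of these levels to Id4 was tested. Smad7 in day 3 ZT16 had 4.41 CPM in replicate 1, against 1.76 CPM in the next library and 1.54 CPM in the lowest, a gap of 0.9224 of the range.

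The difference of ZT16 from ZT4 in Smad1 itself differed between states, by a log2 value of −0.8352 between day 1 and uninjured muscle and −0.8726 between day 3 and uninjured muscle.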

How the results depend on the processing

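Over 1609 refits of the single-gene differences, 583 of 620 called values kept their direction and call, 34 lost the call and 3 changed sign. Of 989 uncalled values, 37 gained a call with the same sign, 1 gained it with the other sign and 74 changed sign uncalled. The 4 that reversed were Bmpr1a (0.05) and Smad5 (0.12) at day 1 with effective length offsets, where the estimated transcript makeup enters the fit, and Smad1 with ZT16 libraries alone (−0.035 at day 1 and −0.37 at day 3). Bmp4, Smad6 and Id2 kept their calls at both days under every alternative run, and for the other changes the cause was not tested. Against uninjured muscle, the median of all genes shifted by 0.12 at day 1 and 0.13 at day 3 without the filter, and by 0.07 and 0.10 with length offsets.

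Of the 10 genes, those called in uninjured ZT16 against ZT4 were 3, but 5 without the filter, 4 by limma, 4 with the replicate block, 2 with those groups alone, 1 without ZT16 replicates 1 and 3, and 1 to 5 without single libraries. Without the filter 1 was called at day 1 between times. In the time effect at day 1, 1 was called, but 2 by DESeq2, 3 by limma, 4 without the filter, 2 with the replicate block, 0 without the pair of libraries and 1 to 4 without single libraries. At day 3 it was 1, but 2 by DESeq2 and 1 to 2 without single libraries. Among all tested genes in uninjured muscle, 2751 of 29234 were called between times without the filter. Limma called 1894 of 15084 there, and the fit with the replicate block 2603 of 15084. The time effect at day 1 had 1540 of 29234 called without the filter. Of 15084 genes, it had 1529 called by DESeq2 and 1107 with the block, and DESeq2 called 2426 at day 3.

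Over all genes, 2663 were called in uninjured ZT16 against ZT4 (48.3% of them higher), but 577 with those groups alone, 467 (37.7% higher) without ZT16 replicates 1 and 3, and 1768 to 2898 without single libraries. At day 1 between times 0 were called, but 27 by DESeq2, 46 by limma, 270 without the filter, 1 with length offsets, 2 with those groups alone and 0 to 10 without single libraries. At day 3 between times it was 0, but 4 by DESeq2, 127 without the filter and 1 with those groups alone. In the time effect at day 1 there were 1125, but 737 by limma, 514 with those groups alone, 134 without the pair and 648 to 1596 without single libraries. At day 3 there were 1927, but 473 without the pair and 1309 to 2369 without single libraries.

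With the replicate number as a block, Id1 gained a call in uninjured muscle (0.55, adjusted p = 0.0458), at day 3 (0.37, adjusted p = 0.0123) and in the time effect at day 1 (−1.01, adjusted p = 0.0163), Bmpr1a lost its call at day 1 (−0.19, adjusted p = 0.0627), and no other call of the 10 changed. Deviations of same-numbered libraries of a state correlated from −0.0911 to 0.105 over 11 pairs, and those of other numbers from −0.111 to 0.131 over 30. These values show no pairing by number, but without a test they cannot exclude a weak one. At day 3 Smad6 and Id4 rested on 59 and 83 counts over 8 libraries, so differences between times there were not detectable at this depth unless large.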
